A study of Mus musculus with 6 samples.

Results

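The 34 genes described here encode glucose and lactate transporters, enzymes of glycolysis, enzymes at the pyruvate branch point, and the oxygen sensing machinery of the hypoxia-inducible factor (HIF) with several of its target genes. They were chosen by gene symbol, all 34 were found among the 56940 Ensembl genes of the count tables, and all 34 passed the filter on low counts, which 15407 genes passed. The symbol Aldoa belongs to a second Ensembl gene (ENSMUSG00000114515), which reached at most 0.693 CPM in any library and was left aside. The study modelled cataract surgery in C57BL/6 mice: the fiber cell mass was removed from the lens, and the capsule with its attached epithelial cells stayed in the eye. Capsules were taken 72 h after surgery (3 libraries) or at 0 h (3 libraries), and 5 capsules were pooled per library. The 0 h capsules came from eyes operated on at the end of the interval, so that both groups had undergone the operation and an animal could give an eye to each. Every library is labelled wildtype and is also tagged RUNX_Cre_N, a term that the labels do not explain. Neither age nor sex of the animals is given. Which animals went into which pool is not stated, so each p-value reflects only how these pools varied.

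Glycolysis splits glucose into pyruvate, which is either reduced to lactate and exported or oxidised in mitochondria. The lens has no blood vessels, sits in fluid that is poor in oxygen, and draws much of its energy from glycolysis. When oxygen is plentiful, prolyl hydroxylases mark the HIF alpha subunit for degradation, and when it is scarce the protein accumulates and raises transcription of many glycolytic genes, of the angiogenic factor Vegfa and of genes of pH control. HIF alpha activity is set largely at the protein level, which these RNA data do not measure.

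Because HIF binds the short sequence ACGTG or GCGTG, the promoters of the genes were searched for both, on either strand, in a window of 300 bases (250 before and 50 after the start) taken from RefSeq on GRCm38.p6. This build differs from GRCm39, the build named in the submitters' processing notes, and the count tables hold no coordinates. Windows were matched by symbol for 32 of the 34 genes, with no entry for Slc2a3 and Ndrg1. At least 1 match lay in 37 of 47 windows (78.7%), against 14380 of all 32851 windows (43.8%). By gene, 29 of 32 (90.6%) had a match, against 12628 of 27025 genes (46.7%). A gene was counted if any of its windows matched, and the 32 genes had more windows per gene than the whole set. The sets were not matched for base composition. Both strands of the palindrome CACGTG match, so that 1 such site counts as 2 matches. A match is a description of letters, not of binding, and windows of 1 gene can overlap.

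The following 4 windows are printed because they belong to genes whose RNA moved in opposite directions after surgery. Matches are in capitals and all other bases in lower case, 5′ to 3′ on the strand of the gene. A match on the opposite strand reads CACGT or CACGC. The Ldha window (chr7:46845554-46845853, plus strand) held 7 matches, the Slc16a3 window (chr11:120948817-120949116, plus strand) 2 and the Car9 window (chr4:43506776-43507075, plus strand) 1. The Aldoc window (chr11:78322823-78323122, plus strand) held 3. For Ldha and Aldoc the window with more matches is printed. The other Ldha window (chr7:46846832-46847131) held 2 matches and the other Aldoc window (chr11:78323948-78324247) held 1.
Ldha: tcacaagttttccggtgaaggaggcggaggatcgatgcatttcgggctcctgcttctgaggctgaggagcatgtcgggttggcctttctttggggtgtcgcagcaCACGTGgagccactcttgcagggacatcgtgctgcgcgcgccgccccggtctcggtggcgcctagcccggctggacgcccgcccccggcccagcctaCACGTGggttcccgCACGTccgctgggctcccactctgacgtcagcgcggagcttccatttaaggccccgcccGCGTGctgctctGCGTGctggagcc
Slc16a3: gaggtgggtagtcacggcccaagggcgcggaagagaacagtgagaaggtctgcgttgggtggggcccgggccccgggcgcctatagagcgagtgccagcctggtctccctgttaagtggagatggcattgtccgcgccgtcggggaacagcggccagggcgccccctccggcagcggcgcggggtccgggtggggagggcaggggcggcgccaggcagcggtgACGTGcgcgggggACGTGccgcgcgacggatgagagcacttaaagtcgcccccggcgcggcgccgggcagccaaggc
Car9: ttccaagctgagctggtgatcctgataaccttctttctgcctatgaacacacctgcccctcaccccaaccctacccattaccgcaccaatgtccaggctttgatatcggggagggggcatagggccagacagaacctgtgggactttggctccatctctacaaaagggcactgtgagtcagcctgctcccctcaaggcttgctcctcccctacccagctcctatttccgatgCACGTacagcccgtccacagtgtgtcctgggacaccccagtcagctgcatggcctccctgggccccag
Aldoc: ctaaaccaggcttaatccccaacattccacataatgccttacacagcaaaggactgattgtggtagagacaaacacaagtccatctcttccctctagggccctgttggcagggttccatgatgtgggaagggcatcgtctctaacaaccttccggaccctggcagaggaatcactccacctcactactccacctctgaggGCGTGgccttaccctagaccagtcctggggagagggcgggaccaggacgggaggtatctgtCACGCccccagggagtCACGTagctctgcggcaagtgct
The first 3 genes were higher at 72 h and Aldoc was lower. The 4 windows were picked with these directions known, and whether matches go with direction was not tested.

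Counts in genes ranged from 8453450 to 8945397 per library at 72 h and from 11338820 to 12432688 at 0 h. Levels are CPM, counts scaled to 1e+06 of the library size adjusted for composition (TMM). Pax6, a transcription factor of the lens epithelium, reached 593, 587.5 and 749 CPM in the 72 h libraries and 660.5, 706.5 and 685 CPM in the 0 h libraries. Its RNA was thus found in all 6 libraries, which alone does not establish their cell types. Of 8 lens epithelium markers 6 were lower at 72 h, as were all 7 fiber markers found and 5 of 6 photoreceptor markers. Macrophage and monocyte markers were higher for 10 of 10 genes, with summed levels of 216 to 368 CPM at 72 h and 24.7 to 36.7 CPM at 0 h. Of 8 neutrophil markers 2 could be tested and were higher (4 without 0 h replicate 1), while Ly6g, Mpo, Elane and Camp were at 0 in all libraries. Of 8 endothelial and pericyte markers 5 were tested and 1, Cspg4, was higher (2 genes without 72 h replicate 3). Cspg4 was at 64.2, 80.1 and 30.9 CPM at 72 h, against 1.73, 2.62 and 0.9465 CPM at 0 h, while the other 7 summed to 13.1, 26.1 and 10.3 CPM at 72 h and 20.8, 12.6 and 9.54 CPM at 0 h, which overlap. Summed levels of 5 pigment cell markers were 17.1 to 63.6 CPM at 72 h and 30.1 to 67.8 CPM at 0 h. Of these Pmel was called lower, a call lost without 0 h replicate 1, 2 or 3 and without 72 h replicate 2 or 3. Mitochondrial genes held 16.6% to 25.3% of counts at 72 h and 3.75% to 3.91% at 0 h. Red blood cell markers summed to 0.734 to 6.37 CPM at 72 h and 1.95 to 22.5 CPM at 0 h, with none of 3 tested genes called. The library 72 h replicate 3 stood apart: 6 surface epithelium markers, among them the keratins Krt5 and Krt15, summed to 4748 CPM there, against 5.56 and 104 CPM in the other 72 h libraries and 24.8 to 53.5 CPM at 0 h. In bulk RNA of this kind, fewer cells of a type and less RNA per cell cannot be told apart.

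**Figure D1:**
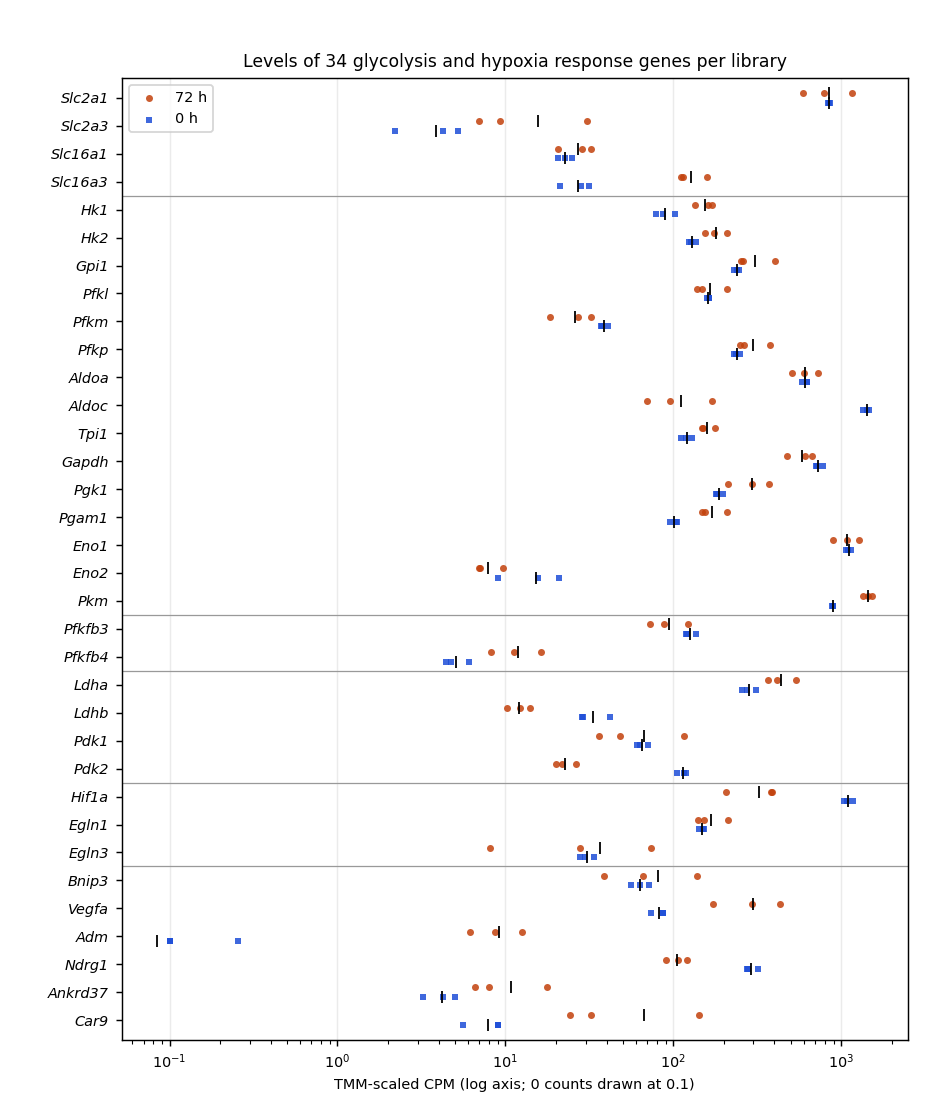
Levels of the 34 genes in each of the 6 libraries, as TMM-scaled CPM on a log axis, with 72 h libraries as orange circles above 0 h libraries as blue squares and the group mean as a black bar. Grey lines separate transporters, glycolytic enzymes, PFKFB enzymes, the pyruvate branch point, oxygen sensing and other HIF targets, and the 72 h libraries are spread more widely than the 0 h libraries for 30 of the 34 genes.

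At 72 h, 14 of the 34 genes were higher (41.2%) and 5 were lower (14.7%) by edgeR's quasi-likelihood test at an adjusted p under 0.05. Over all tested genes 38.5% were called, 21.0% as higher and 17.5% as lower. The median log2 fold change of the 34 genes was 0.29, against −0.02 for all tested genes. The 34 genes were listed with earlier results of these data known, and the part of that choice in these differences was not tested. The higher genes were Slc16a3, Slc2a3, Hk1, Hk2, Tpi1, Pgk1, Pgam1, Pkm, Ldha, Pfkfb4, Vegfa, Adm, Ankrd37 and Car9, and the lower ones were Aldoc, Ldhb, Pdk2, Hif1a and Ndrg1. Every 72 h library lay above every 0 h library for 15 genes, against 26.5% of all tested genes, and below for 7, against 26.9%, and 53.5% of all tested genes showed no overlap in either direction. The higher count was 7 to 14 and the lower count 5 to 10 when 1 library was left out, where leaving out 0 h replicate 1 gave 8 higher genes, leaving out 0 h replicate 2 gave 7, and leaving out 72 h replicate 3 gave 10 lower genes. The part of the macrophage, neutrophil and surface epithelium RNA, and of the mitochondrial share, in these counts was not tested.

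**Figure D2:**
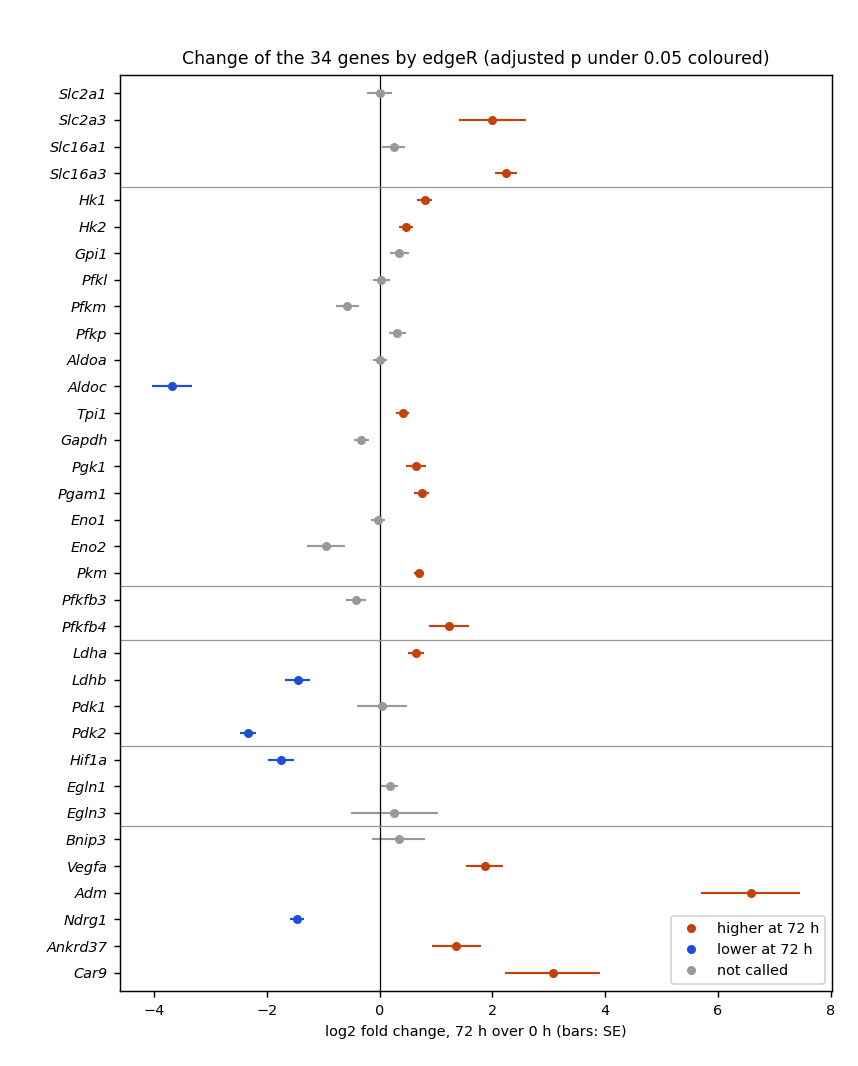
Log2 fold change of each gene, 72 h over 0 h, with its standard error, ordered as in the plot of levels. The 14 genes called higher are orange, the 5 called lower blue and the 15 not called grey. Adm and Car9 lie farthest to the right and Aldoc and Pdk2 farthest to the left, and the point of Adm rests on 3 counts at 0 h.

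Among the transporters, the lactate exporter Slc16a3 (MCT4, ENSMUSG00000025161) rose most clearly. It was at 114, 111 and 158 CPM at 72 h, against 21.3, 31.4 and 28.2 CPM at 0 h, a log2 change of 2.24 ± 0.19 (SE; adjusted p = 1.5e-05). The lowest 72 h library was above the highest 0 h library by a wide margin. Its relative Slc16a1 (MCT1, ENSMUSG00000032902), which carries lactate in either direction, averaged 27.1 ± 5.98 CPM at 72 h and 22.8 ± 2.17 CPM at 0 h (SD, n = 3 each), with overlapping groups (log2 change 0.25 ± 0.21, adjusted p = 0.37).

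The main glucose transporter gene of these capsules, Slc2a1 (GLUT1, ENSMUSG00000028645), was at 593, 792 and 1159 CPM at 72 h and at 837, 860.5 and 844 CPM at 0 h. The 0 h libraries lay close together and the 72 h libraries lay on both sides of them, so that the log2 change was 0.00 ± 0.22 (adjusted p = 0.997). Without 72 h replicate 3 it was −0.28 (adjusted p = 0.0497). Slc2a3 (GLUT3, ENSMUSG00000003153), a high-affinity transporter of neurons and leukocytes, was at 6.95, 9.24 and 30.6 CPM at 72 h and at 4.24, 2.20 and 5.21 CPM at 0 h. It was called higher (log2 change 2.00 ± 0.60, adjusted p = 0.027), but the call was lost without 72 h replicate 3 (log2 change 1.07, adjusted p = 0.0662) and without 0 h replicate 1, 2 or 3 (adjusted p = 0.0896, 0.0994 and 0.0572).

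Of the 15 glycolytic enzyme genes, 6 rose, 1 fell and 8 were not called, where 21% of all tested genes were higher and 17.5% lower. Pyruvate kinase (Pkm, ENSMUSG00000032294), which makes pyruvate in the last step of the pathway, was at 1353, 1434 and 1528 CPM at 72 h, against 892, 879 and 893 CPM at 0 h. The groups were tight and well apart, with a log2 change of 0.70 ± 0.09 (adjusted p = 2.3e-04). Gene counts do not separate its M1 and M2 splice forms. Hexokinase 1 (Hk1, ENSMUSG00000037012), which phosphorylates glucose, was at 161, 135 and 170 CPM at 72 h, against 102, 78.5 and 86.9 CPM at 0 h (log2 change 0.80 ± 0.13, adjusted p = 0.0011). Hexokinase 2 (Hk2, ENSMUSG00000000628), the inducible form, rose less, to 179 ± 28.1 CPM at 72 h, against 129 ± 6.71 CPM at 0 h (log2 change 0.47 ± 0.12, adjusted p = 0.014). Its call was lost without 0 h replicate 1 (adjusted p = 0.0672) or 0 h replicate 2 (adjusted p = 0.076).

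Phosphoglycerate mutase (Pgam1, ENSMUSG00000011752) was at 148, 154 and 209 CPM at 72 h and at 105, 96.2 and 103 CPM at 0 h, a log2 change of 0.75 ± 0.14 (adjusted p = 0.0021). Phosphoglycerate kinase (Pgk1, ENSMUSG00000062070), one of the steps that yield ATP, was at 213, 293 and 371 CPM at 72 h and at 183, 180 and 197 CPM at 0 h (log2 change 0.65 ± 0.18, adjusted p = 0.017). Triosephosphate isomerase (Tpi1, ENSMUSG00000023456) averaged 159 ± 15.6 CPM at 72 h and 120 ± 8.62 CPM at 0 h (log2 change 0.41 ± 0.11, adjusted p = 0.015). All 3 groups of 72 h libraries lay above those of 0 h. Without 0 h replicate 1 or 2 the calls of Pgk1 (adjusted p = 0.0675 and 0.0734) and Tpi1 (adjusted p = 0.0704 and 0.0911) were lost, and that of Pgk1 also without 72 h replicate 2 (adjusted p = 0.0511).

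Aldolase C (Aldoc, ENSMUSG00000017390), the isozyme best known from brain and retina, fell more than any other of the 34 genes. It was at 69.3, 169 and 94.9 CPM at 72 h, against 1431, 1352 and 1464 CPM at 0 h, a log2 change of −3.67 ± 0.35 (adjusted p = 5.2e-04). The highest 72 h library held a small part of the lowest 0 h library. Photoreceptor markers, which were also lower, summed to 66.3, 51.1 and 143 CPM at 72 h and to 1541, 631 and 780 CPM at 0 h. The part of photoreceptor RNA in the values of Aldoc was not tested. Aldolase A (Aldoa, ENSMUSG00000030695), the isozyme of most tissues, was at 511, 600 and 722 CPM at 72 h and at 626, 580 and 622 CPM at 0 h, with a log2 change of 0.00 ± 0.13 (adjusted p = 0.985).

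The other enzymes were not called. Enolase 1 (Eno1, ENSMUSG00000063524) averaged 1085 ± 198 CPM at 72 h and 1105 ± 31.8 CPM at 0 h. Glyceraldehyde-3-phosphate dehydrogenase (Gapdh, ENSMUSG00000057666), often used as a reference gene, was at 478, 609.5 and 666 CPM at 72 h and at 715, 703 and 774 CPM at 0 h, so all 72 h libraries lay below (log2 change −0.32 ± 0.13, adjusted p = 0.07). It was called lower without 72 h replicate 3 (log2 change −0.42, adjusted p = 0.0049). Of the phosphofructokinases, which catalyse the committed step, Pfkl (ENSMUSG00000020277) averaged 165 ± 37.4 CPM at 72 h and 161 ± 3.06 CPM at 0 h. Pfkp (ENSMUSG00000021196) averaged 297 ± 70.6 CPM at 72 h and 239 ± 10.5 CPM at 0 h. The muscle form Pfkm (ENSMUSG00000033065) was at 27.0, 32.1 and 18.3 CPM at 72 h and at 37.6, 40.7 and 36.9 CPM at 0 h, below without overlap but just short of the threshold (log2 change −0.57 ± 0.21, adjusted p = 0.051). It passed without 72 h replicate 2 (adjusted p = 0.0201). Glucose-6-phosphate isomerase (Gpi1, ENSMUSG00000036427) averaged 304 ± 83.2 CPM at 72 h and 238 ± 7.53 CPM at 0 h. Its 72 h libraries, at 259.7, 253.1 and 400.4 CPM, all lay above those of 0 h, at 238.4, 231.1 and 246.2 CPM (log2 change 0.35 ± 0.17, adjusted p = 0.127). The neuronal enolase Eno2 (ENSMUSG00000004267) averaged 7.88 ± 1.54 CPM at 72 h and 15.2 ± 5.95 CPM at 0 h. Eno2 was called lower without 0 h replicate 2 (adjusted p = 0.0236) or 72 h replicate 3 (adjusted p = 0.0205).

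The PFKFB enzymes make and break fructose 2,6-bisphosphate, an activator of phosphofructokinase, and both genes are known HIF targets. Pfkfb4 (ENSMUSG00000025648) was at 8.22, 11.2 and 16.3 CPM at 72 h, against 6.05, 4.40 and 4.73 CPM at 0 h, a log2 change of 1.23 ± 0.35 (adjusted p = 0.019). The groups did not overlap, and the call was lost without 0 h replicate 2 (adjusted p = 0.0845) or 0 h replicate 3 (adjusted p = 0.0774). The more abundant Pfkfb3 (ENSMUSG00000026773) was at 72.7, 87.8 and 122 CPM at 72 h and at 119.3, 121 and 136 CPM at 0 h, with a small overlap (log2 change −0.41 ± 0.17, adjusted p = 0.088). Without 72 h replicate 3 it was called lower (log2 change −0.63, adjusted p = 5.5e-04).

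At the pyruvate branch point the isozymes parted. Lactate dehydrogenase A (Ldha, ENSMUSG00000063229), the isozyme that favours lactate formation, was at 365, 415 and 536 CPM at 72 h, against 313, 257 and 274 CPM at 0 h, a log2 change of 0.64 ± 0.15 (adjusted p = 0.0063). Lactate dehydrogenase B (Ldhb, ENSMUSG00000030246), the isozyme of oxidative tissues, was at 10.2, 13.98 and 12.2 CPM at 72 h, against 29.0, 28.6 and 42.1 CPM at 0 h, a log2 change of −1.45 ± 0.23 (adjusted p = 7.4e-04). Neither pair of groups overlapped.

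Pyruvate dehydrogenase kinases inhibit the mitochondrial complex that turns pyruvate into acetyl-CoA. Pdk2 (ENSMUSG00000038967), a widely expressed form, had the smallest p of the 34 genes. It was at 21.65, 26.45 and 19.9 CPM at 72 h, against 116.5, 106 and 120 CPM at 0 h, a log2 change of −2.33 ± 0.14 (adjusted p = 2.1e-06). Pdk1 (ENSMUSG00000006494), the HIF-responsive form, was at 36.2, 48.3 and 116.4 CPM at 72 h and at 70.8, 63.2 and 60.9 CPM at 0 h. Its 72 h libraries lay below and above all 0 h libraries (log2 change 0.04 ± 0.45, adjusted p = 0.952), and without 72 h replicate 3 it was called lower (log2 change −0.61, adjusted p = 0.0046).

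Of the 3 oxygen sensing genes, Hif1a (ENSMUSG00000021109), which encodes the oxygen-regulated subunit of HIF, fell. It was at 384, 386 and 207 CPM at 72 h, against 1045, 1168 and 1086 CPM at 0 h, a log2 change of −1.75 ± 0.23 (adjusted p = 7.4e-04). The lowest 72 h value was that of replicate 3. The prolyl hydroxylase Egln1 (PHD2, ENSMUSG00000031987), the main oxygen sensor of most cells, averaged 168 ± 38.5 CPM at 72 h and 148 ± 5.38 CPM at 0 h (adjusted p = 0.380). Egln3 (PHD3, ENSMUSG00000035105), which HIF induces, was at 27.8, 8.09 and 73.7 CPM at 72 h and at 27.8, 30.0 and 33.5 CPM at 0 h. Its 72 h libraries spanned 9.12-fold, the widest range among the 34 genes, and no change was called (log2 change 0.26 ± 0.78, adjusted p = 0.828).

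Of the 6 HIF targets outside glycolysis, 4 rose and 1 fell, where 21% of all tested genes were higher and 17.5% lower. Vegfa (ENSMUSG00000023951), the vascular endothelial growth factor, was at 295, 173 and 431.5 CPM at 72 h, against 86.7, 86.4 and 73.8 CPM at 0 h, a log2 change of 1.86 ± 0.33 (adjusted p = 0.0060). Adm (adrenomedullin, ENSMUSG00000030790), a vasoactive peptide, was at 8.68, 6.12 and 12.6 CPM at 72 h and nearly absent at 0 h, with 231 and 3 counts pooled over the groups. The ratio of these pooled counts, adjusted for library size, was 109 (95% exact interval 36.8 to 532, for counting error only). The adjusted p of 2.8e-04 belongs to the edgeR fit over single libraries, not to this ratio. All 3 of the 0 h counts lay in replicate 2, and the fitted log2 change, 6.58, was 9.50 without it.

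Car9 (ENSMUSG00000028463), a carbonic anhydrase of the cell surface that acts in pH control, was at 24.3, 32.1 and 143 CPM at 72 h, against 9.08, 5.59 and 9.07 CPM at 0 h, a log2 change of 3.07 ± 0.85 (adjusted p = 0.043). It was higher in 3 of 3 libraries at 72 h. Its log2 change was 1.84 without 72 h replicate 3, and the call was lost without 0 h replicate 1, 2 or 3 (adjusted p = 0.132, 0.137 and 0.127), with limma voom (0.161) or with no filter (0.098). Ankrd37 (ENSMUSG00000050914), an ankyrin repeat gene induced by HIF, was at 6.598, 7.97 and 17.6 CPM at 72 h and at 5.02, 3.22 and 4.26 CPM at 0 h (log2 change 1.36 ± 0.44, adjusted p = 0.033). Its call was lost without 72 h replicate 3 (log2 change 0.82, adjusted p = 0.122) and without 0 h replicate 1, 2 or 3 (adjusted p = 0.0704, 0.129 and 0.0988), and 26.4% of its exon bases are shared with genes on the other strand.

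Ndrg1 (ENSMUSG00000005125), a stress-responsive gene that hypoxia induces in many cells, moved the other way. It was at 90.3, 106 and 121 CPM at 72 h, against 275, 319 and 278 CPM at 0 h, a log2 change of −1.46 ± 0.13 (adjusted p = 1.9e-05). Bnip3 (ENSMUSG00000078566), a mitophagy receptor, was at 38.55, 65.96 and 137 CPM at 72 h and at 71.7, 56.3 and 63.0 CPM at 0 h, with no change called (log2 change 0.34 ± 0.47, adjusted p = 0.617). Its 72 h libraries lay on both sides of the 0 h libraries, and 22.3% of its exon bases are shared with a gene on the other strand.

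The balance between isozymes was compared within each library, as the log2 ratio of their counts, so that no scaling between libraries enters. Of 11 ratios, 9 showed no overlap between groups, and each of these had the smallest p that 3 against 3 libraries allow in an exact two-sided permutation test, 0.1 (adjusted over the 11 ratios 0.122). Among all tested genes taken singly, 53.5% showed no overlap, and no such share was computed for ratios of other gene pairs. Each ratio also restates the changes of its single genes given above, such as the fall of Aldoc. The largest shift was that of Aldoc to Aldoa, at −2.88, −1.83 and −2.93 at 72 h and 1.19, 1.22 and 1.24 at 0 h, a difference of −3.76. Pdk2 to Pdk1 averaged −1.38 ± 1.01 at 72 h and 0.81 ± 0.14 at 0 h (SD, n = 3 each), a difference of −2.195. Ldhb to Ldha differed by −2.06 and Slc16a3 to Slc16a1 by 2.01. Slc2a3 to Slc2a1 differed by 1.82, Pfkfb4 to Pfkfb3 by 1.63, Eno2 to Eno1 by −0.84, Hk2 to Hk1 by −0.34 and Pfkp to Pfkl by 0.28. The groups overlapped for Pfkm to Pfkl (difference −0.61, exact permutation p = 0.2) and Egln3 to Egln1 (difference −0.40, exact permutation p = 0.7).

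Levels of different genes were compared per length, as CPM per kilobase of annotated exon. This length merges the exons of all annotated transcripts of a gene and can exceed that of the transcripts present. Ranks between genes and shares within families therefore depend on the annotation. On this scale Aldoc made up 13.8% ± 5.45 of the aldolase level at 72 h and 67.45% ± 0.324 at 0 h (SD, n = 3 each). Slc16a3 made up 79.1% ± 6.501 of the level of both lactate transporters at 72 h and 49.4% ± 7.31 at 0 h. Ldhb made up 5.59% ± 1.02 of lactate dehydrogenase at 72 h and 19.9% ± 4.13 at 0 h, and Pdk2 made up 48.8% ± 16.7 of both kinases at 72 h and 81.2% ± 1.47 at 0 h. Slc2a1 held 99.2% ± 0.403 of both glucose transporters at 72 h and 99.8% ± 0.0892 at 0 h. Among the 34 genes the highest level at 72 h was that of Pkm (288 ± 17.6 CPM per kilobase), followed by Slc2a1 (242 ± 81.9), Aldoa (209.9 ± 36.5) and Eno1 (202 ± 36.8). The libraries of Slc2a1 overlapped those of the other 3 genes, and those of Aldoa and Eno1 overlapped each other and lay below those of Pkm. At 0 h Aldoc stood first (434 ± 17.7), above Slc2a1 (242 ± 3.46), with Aldoa (209 ± 8.75) and Eno1 (205 ± 5.92) overlapping each other below it.

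**Figure D3:**
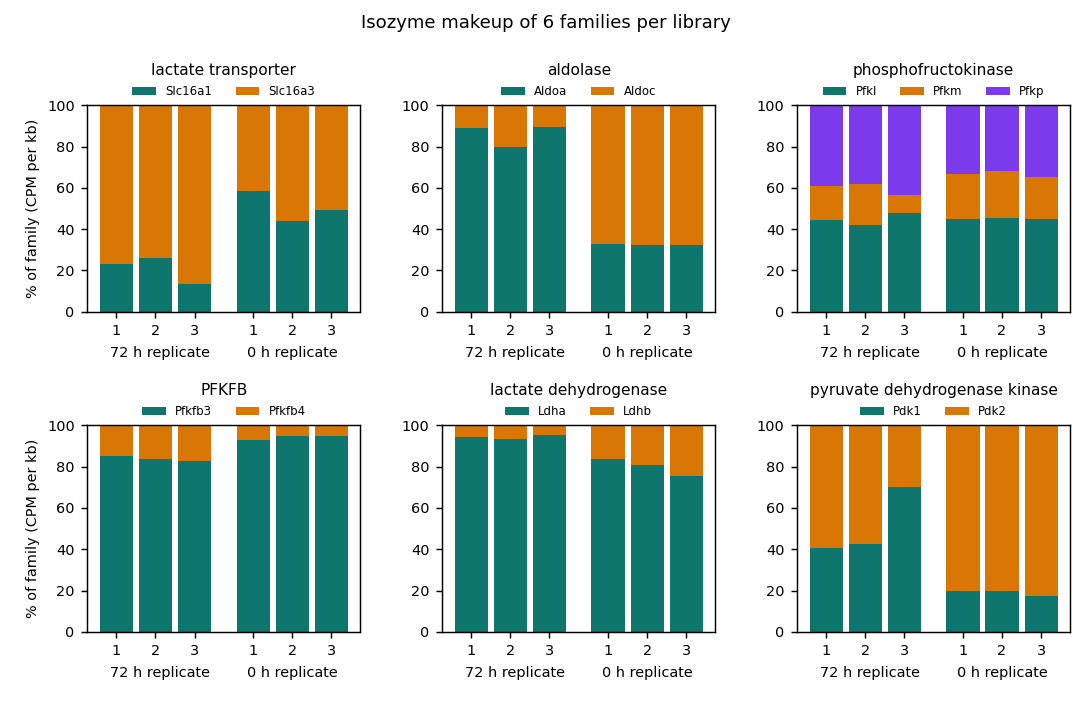
Share of each isozyme in the summed level of its family, in percent of CPM per kilobase of exon, for 6 families and 6 libraries (bars start at 0; 72 h libraries to the left of 0 h libraries). Aldoc held 10.5% to 20.1% of aldolase in the 72 h libraries and 67.1% to 67.7% in the 0 h libraries.

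The 3 libraries of 72 h differed from each other in these genes. Replicate 3 had the highest of the 3 values for 28 of the 34 genes (82.4%), against 34.1% of all tested genes. The median log2 ratio of replicate 3 to the mean of the other 72 h libraries was 0.48 for the 34 genes and −0.06 for all tested genes. With library size alone as the scale the count was 25 of 34 (73.5%), against 25.4% of all genes. With mitochondrial, crystallin and keratin genes left out of the total it was 28 of 34. The spread between 72 h libraries was widest for Egln3, Car9, Slc2a3, Bnip3 and Pdk1, with SDs of 1.56, 1.36, 1.10, 0.91 and 0.87 on the log2 scale, against 0.13, 0.38, 0.56, 0.17 and 0.11 between 0 h libraries. It was narrowest for Pkm (SD 0.09). At 72 h the spread exceeded that of 0 h for 30 of the 34 genes, and for 74.5% of all tested genes.

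Keratins held 0.589% of the counts in replicate 3, against 0.00476% and 0.0179% in the other 72 h libraries. Its summed macrophage and monocyte markers were the lowest of the 3, at 216 CPM, with 319 and 367.5 CPM in the others. The part of either in the higher values of replicate 3 was not tested. Pfkm, Pdk2, Slc16a1 and Hif1a were lowest in replicate 3. The labels give no batch that sets this library apart.

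**Figure D4:**
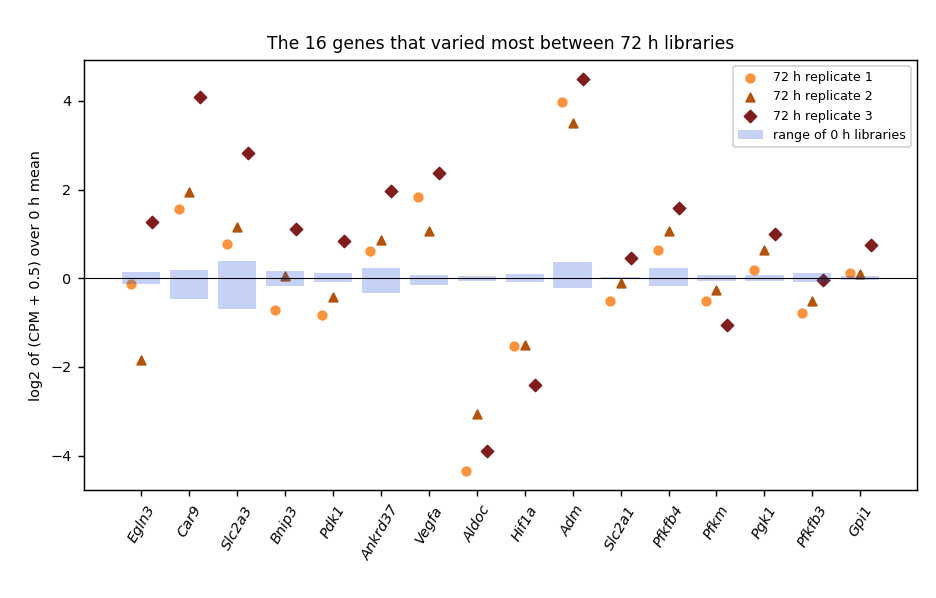
The 16 genes with the widest spread between 72 h libraries, drawn as the log2 of each 72 h library's CPM (plus 0.5) over the 0 h mean (plus 0.5), with the range of the 0 h libraries as a blue band. Replicate 3 is the highest of the 3 for genes such as Egln3, Car9, Bnip3 and Pdk1, and the lowest for Hif1a and Pfkm.

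Related genes outside the 34 were read from 5 lists, whose counts stand against 21% higher and 17.5% lower among all tested genes. These lists too were chosen with earlier results of these data known. Among 28 tested genes of glycolysis and pyruvate metabolism (38 listed), 4 were higher and 10 lower, with a median log2 change of −0.62. The smallest p among the higher ones was that of Hk3, a hexokinase of myeloid cells, averaging 8.76 ± 2.35 CPM at 72 h and 0.137 ± 0.128 CPM at 0 h (log2 change 5.865 ± 0.72, adjusted p = 1.7e-04). Markers of macrophages and monocytes were also higher, for 10 of 10 genes. The part of macrophage and monocyte RNA in the values of Hk3 was not tested. The level of Hk3 rests on 222 counts at 72 h and 5 at 0 h, and leaving out single libraries moved its fitted log2 change between 5.32 (0 h replicate 1 left out) and 6.53 (0 h replicate 2 left out). Among the lower ones the smallest p was that of Eno3, the muscle enolase, averaging 7.73 ± 2.15 CPM at 72 h and 44.9 ± 1.76 CPM at 0 h (log2 change −2.53 ± 0.23, adjusted p = 2.1e-05). Leaving out 0 h replicate 2 gave 5 lower genes, leaving out 0 h replicate 3 gave 6, and leaving out 72 h replicate 3 gave 13. Of 7 pentose phosphate pathway genes, 1 was higher and 1 lower. Transketolase (Tkt), which moves carbon between this pathway and glycolysis, averaged 471 ± 71.3 CPM at 72 h and 1971 ± 26.6 CPM at 0 h (log2 change −2.065 ± 0.12, adjusted p = 1.4e-06), and phosphogluconate dehydrogenase (Pgd) averaged 55.04 ± 11.2 CPM at 72 h and 24.0 ± 2.07 CPM at 0 h (log2 change 1.196 ± 0.18, adjusted p = 5.0e-04).

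Of 16 genes of the tricarboxylic acid cycle, which oxidises the carbon of pyruvate, 1 was higher and 6 lower, with a median log2 change of −0.35. Without 72 h replicate 1 or 3 the higher ones numbered 2. Suclg2, a succinyl-CoA ligase subunit, averaged 34.1 ± 7.06 CPM at 72 h and 73.7 ± 5.47 CPM at 0 h (log2 change −1.11 ± 0.17, adjusted p = 5.8e-04), while Dlst, a subunit of the oxoglutarate dehydrogenase complex, averaged 87.1 ± 4.08 CPM at 72 h and 61.4 ± 1.47 CPM at 0 h (log2 change 0.505 ± 0.11, adjusted p = 0.0044). Of these 16 genes, 1 had its highest 72 h value in replicate 3 (6.25%), against 82.4% of the 34 genes of glycolysis and hypoxia.

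Of 12 further oxygen sensing genes, 1 was higher and 1 lower. Arnt2, a partner of HIF alpha subunits, averaged 31.7 ± 7.63 CPM at 72 h and 12.6 ± 4.29 CPM at 0 h (log2 change 1.33 ± 0.30, adjusted p = 0.0057), and Cited2, which competes with HIF for its coactivator, averaged 21.8 ± 6.345 CPM at 72 h and 68.6 ± 2.12 CPM at 0 h (log2 change −1.65 ± 0.20, adjusted p = 1.5e-04). A second gene was lower without 72 h replicate 2 or 3. Of 24 tested further HIF targets (25 listed, with Epo at 0 counts in all libraries), 10 were higher and 5 lower, with a median log2 change of 0.31. Without 0 h replicate 3 the count of higher genes was 6. Angptl4, a secreted inhibitor of lipoprotein lipase, averaged 87.1 ± 12.0 CPM at 72 h and 3.73 ± 1.39 CPM at 0 h (log2 change 4.55 ± 0.26, adjusted p = 1.2e-06). Bnip3l, a mitophagy receptor related to Bnip3, averaged 140 ± 33.4 CPM at 72 h and 373 ± 12.3 CPM at 0 h (log2 change −1.42 ± 0.16, adjusted p = 8.8e-05). Replicate 3 was the highest 72 h library for 17 of these 24 genes (70.8%).

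**Figure D5:**
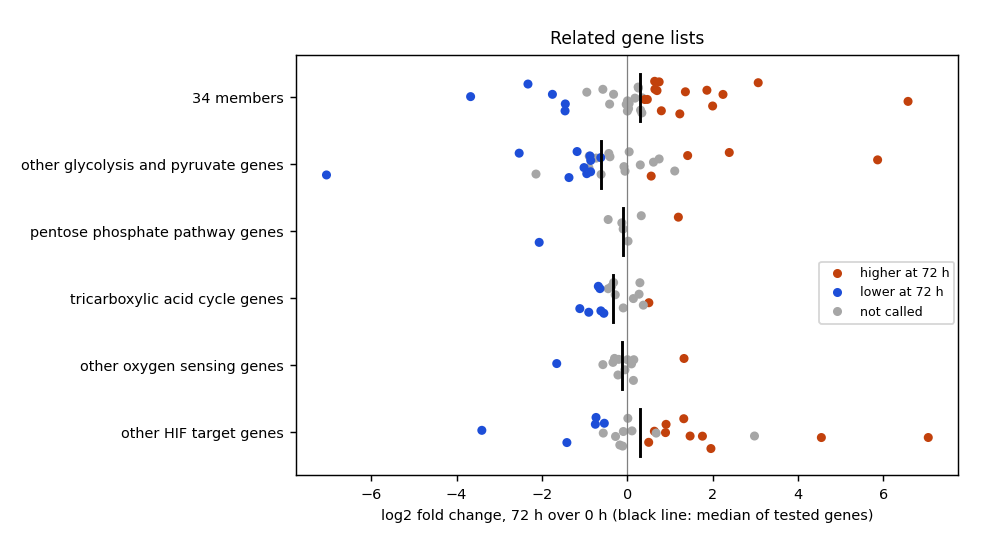
Log2 fold change, 72 h over 0 h, of each tested gene of the 34 and of 5 related lists, with genes called higher in orange, called lower in blue, not called in grey, and the median as a black line. The medians were 0.29 for the 34 genes, −0.62 for other glycolysis and pyruvate genes and −0.35 for the tricarboxylic acid cycle. The point farthest to the left is Slc16a8, with 0 counts at 72 h and 58 at 0 h (at least 13.7-fold lower, against a floor of 3 counts over the group), and its fitted value depends on the prior count.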

How the data were processed

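Total RNA of lens capsules went into 6 libraries (SMARTer Stranded Pico v2 from Takara, per the labels' protocols). As deposited by the authors, the tables give raw counts for each Ensembl gene and are not normalized. The submitters' processing notes list HISAT2, HTSeq, edgeR and GRCm39, without versions, annotation release or strand setting. The 5 lines of reads given to no gene (48.0% to 51.7% of reads at 72 h, 41.9% to 45.15% at 0 h) were left out. Symbols were matched by Ensembl identifier in a reference table of gene names, for 51947 of 56940 genes. Exon lengths come from GENCODE M21, which is of another build (GRCm38).

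Genes kept by filterByExpr (minimum count 10, minimum total 15) were normalised by TMM and tested with edgeR 4.0.16 in R 4.3.3 (quasi-likelihood, robust, two-sided, time as the only term), with Benjamini-Hochberg adjustment over all 15407 genes and a threshold of 0.05. The test was checked on simulated data with the same dispersion in both groups. In the real data the spread was wider at 72 h for 74.5% of tested genes, a difference that this check does not cover. Each SE is the fold change over the root of its F statistic. Isozyme ratios used counts plus 0.5 and an exact permutation test (scipy 1.17.1). Alternatives used DESeq2 1.42.0 and limma 3.58.1 and are given in the closing section. The members and lists were chosen with earlier results of these data known. All 34 members are named, and from each related list the called gene with the smallest p in each direction. Of the related and marker genes Lim2 was not matched.

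Near-identical copies (at least 95% identity over 200 bases, blastn 2.17.0) exist for 12 of the 34 genes, and their counts came to 3.28% of those of Gapdh, 1.70% of those of Eno1 and under 1% elsewhere. Reads that aligned to several places were given to no gene, so these shares do not include them. Such reads made up 6.68% to 8.26% of reads at 72 h and 4.38% to 4.68% at 0 h. How many of them came from these genes is not known. Exon bases are shared with a gene on the other strand for 13, most in Ankrd37 (26.4%) and Bnip3 (22.3%), and counts there are uncertain. Pkm, Pfkm and Hif1a also share exon bases with a gene on their own strand (Gm49759, Gm26513 and Gm49321), with the same uncertainty. As a check for a library deposited more than once, counts were compared within groups (chi-square per degree of freedom 7.08 or more), and all 6 libraries were kept as separate samples.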

Additional observations from a re-analysis of the deposited data

How the results depend on the processing

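Of the 19 called genes, 12 kept their direction and call under all 15 alternatives, and the other 7 (Slc2a3, Hk2, Tpi1, Pgk1, Pfkfb4, Ankrd37 and Car9) lost the call in at least one. The count of higher genes was 12 to 14 under other normalizations, filters and tests, and 7 to 14 without any one library. The count of lower genes, 5, was 9 with upper quartile normalization or no filter, 8 with library size alone or limma voom, 7 with DESeq2, the stricter filter or the replicate block, and 5 to 10 without any one library. Over all genes the higher calls ranged from 2511 to 3646 and the lower calls from 1877 to 3265 without any one library.

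Pfkm, Eno2, Gapdh and Pfkfb3 lie near the threshold and were called lower in several alternatives. The sign of genes near 0 depended on the scaling. With upper quartile normalization the log2 changes were −0.089 for Slc2a1, −0.059 for Pfkl, −0.084 for Aldoa and −0.051 for Pdk1, and with library size alone −0.064 for Slc2a1, −0.029 for Pfkl, −0.053 for Aldoa and −0.038 for Pdk1. With no filter they were −0.014 for Slc2a1 and −0.0097 for Aldoa. Limma voom gave −0.055 for Slc2a1, −0.011 for Aldoa, −0.15 for Pdk1 and −0.28 for Egln3. Without any one library the ranges were −0.28 to 0.20 for Slc2a1, −0.16 to 0.14 for Pfkl, −0.12 to 0.11 for Aldoa, −0.15 to 0.092 for Eno1, −0.61 to 0.33 for Pdk1, −0.27 to 0.67 for Bnip3, −0.011 to 0.29 for Egln1 and −0.75 to 0.73 for Egln3. The cause was not tested.

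The labels do not say whether replicate numbers pair the samples. Deviations of same-numbered libraries correlated at −0.037, 0.059 and −0.012, and those of differently numbered ones at −0.081 to 0.091. These values cannot show whether pools shared animals. The replicate block gave 2921 higher and 2507 lower genes over all, 13 and 7 of the 34, and log2 changes of −0.054 for Slc2a1, −0.0095 for Aldoa, −0.14 for Pdk1 and −0.18 for Egln3, and it ended the call of Ankrd37 (adjusted p = 0.0532). Of the 11 isozyme ratios 10 kept their direction under every alternative; Egln3 to Egln1 was 0.058 with pooled counts and −0.99 to 0.30 without any one library. The count of 28 genes highest in 72 h replicate 3 was 25 and 28 with other scalings, chosen after seeing the data. Among the marker lists, the higher neutrophil genes numbered 4 with no filter and 1 with the stricter filter, no pigment cell gene was lower with the stricter filter, and 3 photoreceptor genes were lower with the replicate block. Depth limits the value of Adm: its 0 h level rests on 3 counts, and its fitted log2 change was 6.02 to 9.50 without any one library.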
